A study of Mus musculus with 14 samples.

Results

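The B-cell follicles and T-cell zones of the mouse spleen were compared in 5 spleen sections measured with 10x Genomics Visium spatial transcriptomics, in which each barcoded spot of a slide captures probe-derived RNA from a small group of neighbouring cells. The spots were chosen by their own counts. In every section, spots over tissue in which 1000 or more genes were detected were scored for 6 B-cell genes (Cd79a, Cd79b, Ms4a1, Cd22, Fcer2a and Cr2) and 6 T-cell genes (Cd3d, Cd3e, Cd3g, Lck, Tcf7 and Cd2). The 50% of spots with the highest share of these transcripts were ranked by the log2 ratio of B to T counts, with 1 added to each. The top 20% were taken as follicle spots and the bottom 20% as T-zone spots. This gave 675 follicle and 675 T-zone spots, 1350 of the 6746 passing spots of the spleens and of the 15985 passing spots of all 14 sections. A zone in this text is therefore a ranking of spots by 12 genes and not an outline drawn on the tissue.

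The study measured hematopoietic organs of wild-type and C1qa knockout mice. The spleens came from 1 purchased C57BL/6 wild-type mouse labelled as adult, and from a C1qa cross with 2 wild-type and 2 knockout spleens collected at 3 months by the labels (a figure legend of the study gives a younger age for spleens). No animal was treated, and both genotypes of the cross descend from C1qa heterozygous parents. Values of the 5 sections are given below in the order purchased wild-type, wild-type 1, wild-type 2, knockout 1 and knockout 2. The study's reporting form describes its Visium spleens as biological replicates, and each section was taken as 1 replicate.

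The white pulp of the spleen is organised around small arteries. T cells gather in a sheath next to the vessel, and B cells form follicles at its side. Follicular dendritic cells and other follicle stroma release CXCL13, which attracts cells carrying its receptor CXCR5. Stromal cells of the T zone release CCL19 and CCL21, which attract T cells and mature dendritic cells through CCR7. The marginal zone, with its own B cells and macrophages, separates the follicles from the blood-filled red pulp. The CCL19 and CCL21 genes were not analysed here.

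The 12 genes that set the zones showed what the ranking chose. The median follicle spot held 120, 111, 20, 75 and 108 UMIs (unique molecular identifiers, each counted as 1 captured molecule) of the B-cell genes and 7, 5, 1, 2 and 3 UMIs of the T-cell genes. The median T-zone spot held 72, 74, 6, 50 and 63 B-cell UMIs against 35, 19, 9, 12 and 24 T-cell UMIs. T-zone spots thus held more B-cell than T-cell transcripts in 4 of 5 sections, all but wild-type 2, and were spots rich in T cells among B cells rather than pure T-cell areas. The T-zone spots nearest the limit had log2 ratios of 2.04, 2.40, 0.65, 2.54 and 2.26, and the first spots left out had 2.04, 2.40, 0.65, 2.56 and 2.27. At the follicle limit the values were 3.65, 3.75, 2.94, 4.27 and 4.09 inside, and 3.64, 3.75, 2.94, 4.27 and 4.09 outside. The limits cut a continuous range in every section.

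To measure defining markers outside the ranking, the zones were set again without Cr2, Fcer2a and Cd3e. Cr2, the complement receptor of B cells and follicular dendritic cells, then reached 2303, 1036, 556, 1845 and 2100 CPM (UMIs per 1000000 UMIs outside the 12 genes) in the follicle sums. In the T-zone sums it had 949, 485, 168, 745 and 768 CPM. The log2 fold change was 1.34 ± 0.06 (SE, n = 5; edgeR adjusted p = 4.2e-19). Fcer2a, the low-affinity IgE receptor of follicular B cells, was higher by a log2 fold change of 0.50 ± 0.09 (adjusted p = 6.6e-05). Cd3e, a chain of the T-cell receptor complex, had 110, 105, 170, 77.3 and 92.9 CPM in the follicle and 459, 330, 783, 325 and 438 CPM in the T zone (adjusted p = 2.0e-21). The remaining ranking genes mark the same B and T cells, so the choice of spots largely fixed the direction of these 3 genes. Most spots also stayed in their zone, for example 90 follicle and 82 T-zone spots of 101 each in the purchased section. The values describe the zones in the same 5 sections that set them and are no separate support for the labels.

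**Figure D1:**
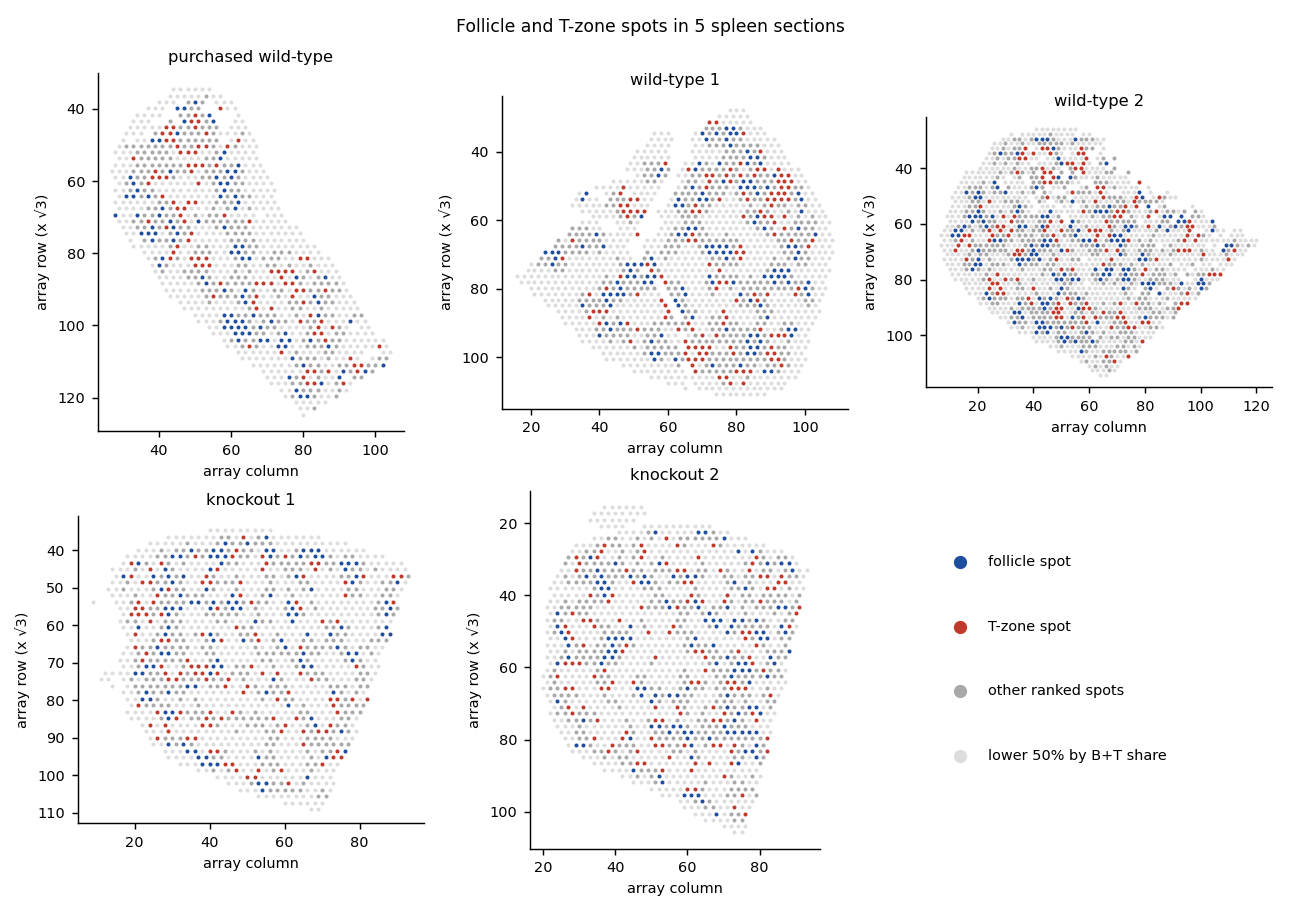
Each point is a passing spot at its array column and row (rows scaled to true spacing), 1 panel per spleen section, coloured by zone. Follicle and T-zone spots lie in scattered small patches, the largest of 5 to 16 spots, with more neighbours of the same zone (14.6 to 27.9%) than of the other zone (4.45 to 9.9%).

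The ranking used no positions, and the map of zone spots shows how they were arranged. Of the spots adjacent to a follicle spot, 26.4, 27.8, 25.4, 23.4 and 22.0% were follicle spots as well, and 5.14, 7.42, 4.45, 9.90 and 8.67% were T-zone spots. Each zone made up about 10% of passing spots (9.98 to 10.0%). Of the spots adjacent to a T-zone spot, 25.5, 27.9, 22.8, 16.4 and 14.6% were in the T zone and 5.03, 7.52, 4.52, 9.90 and 8.77% in the follicle. Spots of the lower 50% by B and T share made up 25.5 to 46.5% of the neighbours of T-zone spots and 13.3 to 27.1% of those of follicle spots. Both zones had more neighbours of their own zone than of the other. Zones were drawn only from the ranked 50%, so their share of passing spots is no measure of clustering within the ranked spots, which was not tested. Single spots made up 26 of 41, 32 of 60, 48 of 79, 51 of 78 and 45 of 82 T-zone patches. In the 2 knockout sections T-zone spots had fewer neighbours of their own zone than in the 3 wild-type sections. This difference was not tested. An exact permutation test of 2 against 3 sections cannot reach a p under 0.05.

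C1qa, the targeted gene, was checked first in every section. It had 305, 92.7 and 119 CPM in the follicle sums of the 3 wild-type sections and 413, 187 and 224 CPM in their T-zone sums. All 4 knockout sums held 0 counts, which allows at most 1.69 to 2.88 CPM (3 counts). The labels of the knockout sections held. Total counts per section in tissue ran from 4604705 in wild-type 2 to 19939171 in wild-type 1, and the median passing spot of wild-type 2 held 2293.5 UMIs against 7846 to 13937.5 in the others. Wild-type 2 was thus the shallowest section. It also held 93 spots with 0.5% or more of their UMIs from pancreas genes, of which 11 were follicle and 7 T-zone spots. Knockout 1 and knockout 2 held 35 and 46 such spots, with 1 T-zone spot and 0 follicle spots each. The purchased section and wild-type 1 held 0. Depth was close between the zones of a section. The median follicle spot held 12522, 14372, 2583, 7846 and 11666 UMIs and the median T-zone spot 13487, 14838, 2294, 8012 and 12123 (exact two-sided sign-flip permutation test over 5 sections, p = 0.81, where the smallest possible p is 0.0625).

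Counts of each zone were summed per section, and the 2 sums of a section were compared within that section with edgeR's quasi-likelihood test. Of 13300 genes that passed the filter on low counts, outside the 12 ranking genes, 1139 (8.56%) passed at an adjusted p under 0.05, 492 higher in the follicle sums (3.7%) and 647 lower (4.86%). Of these, 400 were higher and 572 lower in all 5 sections, against 7.02% and 8.97% of all genes tested with such a uniform sign. The genes lower in the follicle moved further, with a median log2 fold change of -0.67 against 0.44 for those higher. A log2 change of at least 1 was reached by 191 of the lower and 22 of the higher genes. DESeq2 called 228 higher (1.71%) and 339 lower (2.55%), 4.26% in all. Without the purchased section 714 genes were called instead of 1139, and with zones set from the adjacent spots of each spot, without its own counts, 972 were called (7.52%, with 3.4% higher and 4.12% lower), of which 676 were among the 1139. A gene that passed the low-count filter only through the zone where it was high had to differ, and fewer cells of a type cannot be told apart from less RNA per cell.

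B-cell genes outside the ranking were higher in the follicle almost throughout. Of 20 such genes, 19 passed with higher levels (background 3.7%) and 0 with lower levels, with a median log2 fold change of 0.60 against 0.01 over all genes tested. They sit in the same cells as the ranking genes, so their direction follows from the choice of spots and describes it. With zones set from adjacent spots, 17 of 20 were still higher. Pax5, the transcription factor that holds B-cell identity, had 527, 448, 424, 564 and 481 CPM in the follicle and 310, 351, 158, 366 and 318 CPM in the T zone. Its zones did not overlap between sections, and the log2 fold change was 0.68 ± 0.08.

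The immunoglobulin heavy chains differed from each other. Ighd, whose IgD product marks mature follicular B cells, had 1944, 1992, 1855, 1765 and 2114 CPM in the follicle and 1286, 1567, 868, 1673 and 1905 CPM in the T zone, a log2 fold change of 0.45 ± 0.09 (adjusted p = 0.00040). Ighm, the IgM chain, is made by naive and marginal zone B cells and by plasma cells. It had 8314, 5108, 6080, 6196 and 6369 CPM against 9373, 5403, 4737, 6419 and 6769 CPM. It was lower in the follicle in 4 sections and higher in wild-type 2, and its log2 fold change of 0.01 ± 0.07 did not pass (adjusted p = 0.98). Among the 20 B-cell genes it was the 1 gene that did not pass. Spots outside the ranked 50% had a mean of 12070 CPM of Ighm, above both zones.

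Genes of B-cell receptor signalling followed the B cells. All 12 tested were higher in the follicle, with a median log2 fold change of 0.47. Blk, a Src-family kinase of B cells, had 589, 818, 689, 935 and 837 CPM in the follicle and 315, 520, 224, 564 and 459 CPM in the T zone (log2 fold change 0.90 ± 0.08). Blnk, the adaptor that links the receptor to downstream enzymes, changed by 0.84 ± 0.08, and Bank1, a scaffold of the same pathway, by 0.84 ± 0.08. Lyn, the kinase that both starts and restrains the signal, was higher by 0.52 ± 0.07. Ptpn6, the inhibitory phosphatase SHP-1, was higher by 0.42 ± 0.09 in the fit, yet knockout 2 had 615 CPM in the follicle and 616 CPM in the T zone. Prkcb, the protein kinase C isoform of B cells, and Cd81, a tetraspanin of the B-cell surface, changed by 0.28 ± 0.06 and 0.35 ± 0.06. Tnfrsf13c, the receptor for the survival factor BAFF, had 555, 331, 321, 323 and 318 CPM against 281, 193, 133, 217 and 206 CPM (0.82 ± 0.07). With zones set from adjacent spots 9 of the 12 signalling genes were higher.

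All 12 MHC class II genes passed with higher levels in the follicle, by a median of 0.36, with a range of 0.24 to 0.67. B cells express class II genes, so the choice of spots bears on this direction, as with the B-cell genes. Cd74, the invariant chain that guides class II molecules to their peptides, had 21914, 18397, 18326, 19838 and 18724 CPM in the follicle and 15924, 15301, 11112, 16352 and 14474 CPM in the T zone, with no overlap (0.44 ± 0.06, adjusted p = 7.5e-06). H2-Ab1, H2-Eb1 and H2-Aa, chains of the presenting molecules, were higher by 0.37 ± 0.06, 0.32 ± 0.06 and 0.29 ± 0.07, each in 5 of 5 sections. DESeq2 called 7 of the 12, and 6 of 12 passed with zones from adjacent spots.

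The octamer ATGCAAAT is the binding motif of the factors OCT1 and OCT2. Its letters were searched on both strands of RefSeq promoters (build GRCm38.p6, 250 bases before to 50 after each gene's start). A promoter was held for 10369 of the 13294 symbols tested. The octamer stood in 1.63% of all these promoters, in 21 of 382 (5.50%) of those of genes higher in the follicle and in 8 of 442 (1.81%) of those of genes lower in it. The TCF motif ATCAAAG, for factors of T cells, stood in 3.21% of all promoters, 3.40% of the higher and 4.07% of the lower genes. These matches describe letters in a window and were not tested. Of the genes in the lists described here, Blnk, Ccr6 and Prkcb were higher in the follicle and held an octamer. Col3a1, of the T-zone stroma list, also held one and was lower (log2 fold change -0.70). For Blnk, Ccr6 and Prkcb, the 200 bases before the start are shown on the strand of the gene, with the octamer, on either strand, in capitals. They lie at chr19:40994222-40994421 (minus strand), chr17:8235843-8236042 (plus) and chr7:122288925-122289124 (plus), with the octamer beginning 130, 68 and 70 bases before the start.
Blnk: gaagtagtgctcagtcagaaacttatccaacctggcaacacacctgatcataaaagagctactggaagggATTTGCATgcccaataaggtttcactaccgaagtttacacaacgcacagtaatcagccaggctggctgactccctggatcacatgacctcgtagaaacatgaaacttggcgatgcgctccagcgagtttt
Ccr6: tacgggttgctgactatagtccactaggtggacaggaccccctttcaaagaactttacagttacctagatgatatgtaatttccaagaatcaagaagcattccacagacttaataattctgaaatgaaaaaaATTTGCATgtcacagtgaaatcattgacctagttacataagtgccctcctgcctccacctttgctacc
Prkcb: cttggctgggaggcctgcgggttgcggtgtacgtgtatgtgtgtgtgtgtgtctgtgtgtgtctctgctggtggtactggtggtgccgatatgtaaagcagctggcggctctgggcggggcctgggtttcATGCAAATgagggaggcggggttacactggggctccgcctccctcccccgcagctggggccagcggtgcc

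Of the chemokines and ligands that build the zones, 2 of the 7 tested were higher in the follicle, and 1 of 7 (Cxcl13) in DESeq2. Cxcl13, the follicle chemokine, had 317, 20.5, 20.2, 39.4 and 76.3 CPM in the follicle and 101, 13.4, 7.40, 19.3 and 27.6 CPM in the T zone. It was higher in the follicle within every section, although its level ranged over sections by more than the zones differed, and its log2 fold change was 1.45 ± 0.13 (adjusted p = 1.9e-10). Lta, a lymphotoxin chain that lymphocytes use to maintain follicle stroma, was higher by 0.52 ± 0.13 (adjusted p = 0.0098), but did not pass in DESeq2 (adjusted p = 0.13) or with zones from adjacent spots (adjusted p = 0.51). Its partner Ltb had 938, 1550, 1469, 1497 and 1274 CPM against 931, 1383, 1620, 1447 and 1308 CPM, with a log2 fold change of 0.03 ± 0.06 that did not pass. Cxcl12, a chemokine of marrow and red pulp stroma, and the survival factors Tnfsf13b (BAFF), Il7 and Tnfsf11 had log2 fold changes of -0.11 ± 0.10, -0.38 ± 0.19, -0.32 ± 0.28 and -0.25 ± 0.22 and did not pass.

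The homing receptors split by zone, 3 of 10 higher in the follicle and 4 lower, with 3 higher and 2 lower (Ccr7 and S1pr4) in DESeq2. Where B or T cells carry such a receptor, the choice of spots bears on its direction too. Cxcr5, the receptor of CXCL13, had 515, 469, 440, 454 and 404 CPM in the follicle and 254, 303, 163, 243 and 218 CPM in the T zone. All 5 follicle values lay above all 5 T-zone values, as they did in 0.579% of genes tested, and the log2 fold change of 0.93 ± 0.07 had the smallest adjusted p among the genes higher in the follicle (3.0e-11). Ccr6, a receptor of naive and marginal zone B cells, had 211, 279, 339, 312 and 303 CPM against 119, 198, 121, 210 and 212 CPM (0.69 ± 0.08). S1pr3, which with S1pr1 holds marginal zone B cells in their place, had 140, 93.7, 101, 148 and 112 CPM against 75.5, 52.2, 44.4, 59.0 and 62.6 CPM (0.98 ± 0.09).

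Ccr7, the T-zone receptor, ran the other way with 165, 185, 175, 104 and 127 CPM in the follicle and 336, 252, 434, 186 and 281 CPM in the T zone. Its log2 fold change was -0.89 ± 0.09 (adjusted p = 2.0e-09). S1pr4, a sphingosine receptor of T cells, was lower in the follicle by -0.44 ± 0.07, in 5 of 5 sections. Cxcr4, the receptor of CXCL12, was lower by -0.32 ± 0.09 but was higher in wild-type 2. Gpr183, S1pr1 and S1pr2 had log2 fold changes of -0.01 ± 0.07, 0.15 ± 0.07 and -0.02 ± 0.22 and did not pass.

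**Figure D2:**
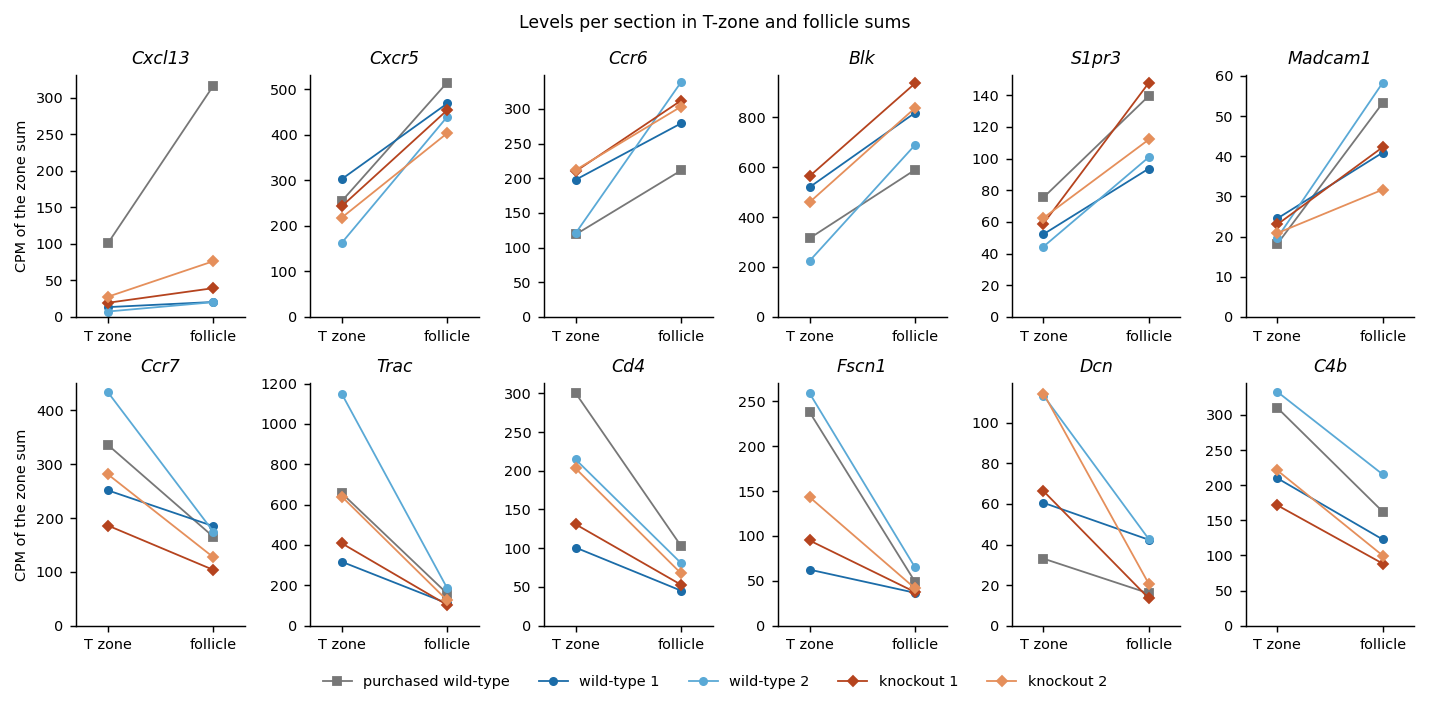
Each panel gives the CPM of 1 gene in the T-zone and follicle sums, with a line per section (linear axes from 0, 5 sections). The 6 genes of the upper row (Cxcl13, Cxcr5, Ccr6, Blk, S1pr3 and Madcam1) are higher in the follicle in 5 of 5 sections, and the 6 of the lower row (Ccr7, Trac, Cd4, Fscn1, Dcn and C4b) are lower in 5 of 5.

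Genes of follicular dendritic cells, the stromal cells that display antigen to B cells, moved less uniformly than those of lymphocytes. Of 15 tested, 5 were higher in the follicle and 1 lower, with a median of 0.26. Mfge8, a bridge to dying cells released by these stromal cells, had 1201, 1481, 1337, 1318 and 1444 CPM against 860, 1028, 873, 1058 and 1281 CPM (0.43 ± 0.06). Enpp2, the enzyme that makes lysophosphatidic acid, had 124, 320, 179, 216 and 235 CPM against 76.0, 171, 86.3, 153 and 144 CPM (0.77 ± 0.08). Madcam1, an adhesion molecule of the marginal sinus and follicle stroma, had 53.3, 40.9, 58.3, 42.3 and 31.7 CPM against 18.2, 24.5, 19.7, 23.0 and 20.9 CPM (1.01 ± 0.16), with no overlap. Fcgr2b, the inhibitory IgG receptor that B cells also carry, was higher by 0.65 ± 0.07. Pthlh was higher by 1.11 ± 0.35 at 4.11 to 14.7 CPM in the follicle, and not in knockout 2.

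Other genes of the same list did not follow. Clu, abundant in follicular dendritic cells, had 829, 1085, 1097, 950 and 950 CPM in the follicle and 771, 857, 1129, 1001 and 1099 CPM in the T zone, a log2 fold change of 0.05 ± 0.07 (adjusted p = 0.83). C4b, a complement gene of stromal cells in both zones, was lower in the follicle with 162, 123, 215, 88.4 and 99.7 CPM against 310, 210, 333, 171 and 221 CPM (-0.88 ± 0.08, adjusted p = 1.4e-10). With zones from adjacent spots, Mfge8 changed by 0.08 and did not pass (adjusted p = 0.76), while C4b changed by -0.89.

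Of 9 germinal centre genes, 2 were higher and 1 lower in the follicle. Rgs13, a brake on chemokine receptors in germinal centre B cells, had 29.4, 6.66, 11.2, 5.76 and 11.7 CPM in the follicle and 10.5, 3.70, 0, 8.29 and 4.51 CPM in the T zone (1.16 ± 0.30). Basp1 was lower by -0.40 ± 0.12. Bcl6, the master regulator of the germinal centre, changed by 0.23 ± 0.08 and did not pass (adjusted p = 0.079). DESeq2 called 0 of the 9 germinal centre genes, with 3 at an unadjusted p under 0.05 (5 in edgeR).

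Some genes of the marginal zone were also higher in follicle spots than in T-zone spots. Of 10 marginal zone B-cell genes, 7 were higher in the follicle and 0 lower, with a median of 0.59. Plac8 had 1780, 1025, 1130, 1280 and 1047 CPM against 1201, 771, 535, 677 and 536 CPM (0.78 ± 0.07). Mzb1, a chaperone of antibody-secreting and marginal zone B cells, had 464, 557, 597, 654 and 586 CPM against 311, 417, 212, 422 and 367 CPM (0.69 ± 0.08). Tm6sf1 was higher by 0.67 ± 0.08. Marco and Cd209b, receptors by which marginal zone macrophages take up microbes, were 2 of 8 macrophage genes of that zone that were higher. In the same list 1 gene was lower. Marco had 194, 182, 112, 160 and 191 CPM against 101, 222, 34.5, 79.2 and 68.8 CPM (0.71 ± 0.15), higher in every section but wild-type 1, and Cd209b showed the same (0.73 ± 0.20). Marco was not highest in follicle spots, however. Ranked spots between the zones averaged 184 to 198 CPM over the sections, against 168 CPM in follicle and 101 CPM in T-zone spots. In spots below the median share of red pulp genes, Marco and Cd209b changed by 0.57 and 0.25 and did not pass (adjusted p = 0.085 and 0.73), while 4 of 10 marginal zone B-cell genes did.

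T-cell genes outside the ranking were lower in the follicle without exception. All 20 tested passed with lower levels (background 4.86%), with a median log2 fold change of -1.76. As with the B-cell genes, the choice of spots fixes this direction, and 18 of the 19 tested were lower with zones from adjacent spots. Trac, the constant region of the T-cell receptor alpha chain, had 159, 111, 186, 103 and 126 CPM in the follicle and 657, 317, 1149, 408 and 640 CPM in the T zone (-2.06 ± 0.09). Trbc1 and Trbc2, the beta-chain constant regions, fell by -2.15 ± 0.09 and -2.06 ± 0.08. Both are near-identical genes whose probes may share reads.

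Genes of both the helper and the cytotoxic lineage were lower in the follicle. Cd4 had 103, 45.2, 80.7, 52.8 and 67.5 CPM in the follicle and 300, 101, 215, 131 and 203 CPM in the T zone (-1.41 ± 0.09). Cd8a had 30.6, 13.3, 26.9, 19.2 and 23.5 CPM against 101, 40.7, 76.4, 52.5 and 84.0 CPM (-1.65 ± 0.13), and Cd8b1, the other chain of the CD8 co-receptor, fell by -2.27 ± 0.15. Ms4a4b, a membrane protein of T cells, changed by -1.97 ± 0.09, and Cd27, a costimulatory receptor, by -2.26 ± 0.11. Thy1, carried by T cells and some stromal cells, changed by -1.97 ± 0.11. Features named after alpha- and beta-chain joining and variable segments were lower in 58 of 60 cases, with a median of -1.84. Traj12, Traj15, Traj20, Traj22, Traj23 and Traj40 were among the genes with the smallest p or the largest change. Such segments lie in the same transcripts as Trac, and they cannot be read as separate findings.

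The genes that changed most were not all members of the B- and T-cell lists. Thbs4, a matrix glycoprotein, had 1.84, 0.476, 0, 0.960 and 0.587 CPM in the follicle and 12.1, 7.40, 49.3, 10.1 and 19.2 CPM in the T zone, the largest fitted change of the genes lower in the follicle (-3.91 ± 0.41). With 0 to 3 counts in each follicle sum it passed the low-count filter only through the T zone, so it is one of the genes that had to differ, and the fitted value depends on the prior count. Dapl1 was lower by -2.26 ± 0.16. On the other side, Fcamr, a receptor for IgM and IgA, had 6.72 to 55.7 CPM in the follicle sums and 2.47 to 11.98 CPM in the T-zone sums. Its log2 fold change of 1.64 was the largest among the genes higher in the follicle, although knockout 1 ran the other way, and without the purchased section it was 1.03 and did not pass. Itgb4, Tsga13 and Ltk were higher by 1.48 ± 0.27, 1.33 ± 0.21 and 1.28 ± 0.22, all in 5 of 5 sections and all at low levels, at most 35.9 CPM in the follicle.

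T-cell receptor signalling genes were lower for 11 of 12, with a median of -1.29. As with the T-cell genes, the choice of spots bears on this direction. Lat, the adaptor that assembles the signal, had 118, 85.6, 117, 70.1 and 61.6 CPM against 426, 261, 700, 264 and 374 CPM (-2.03 ± 0.10), and Lcp2, its partner SLP-76, changed by -0.92 ± 0.07. Sla, which dampens the receptor, was lower by -0.32 ± 0.08.

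Regulatory and helper T-cell genes were lower for 9 of 11, with a median of -0.97. The choice of spots bears on their direction as well. Foxp3, the factor that defines regulatory T cells, had 9.80, 9.51, 2.24, 8.64 and 2.35 CPM in the follicle and 23.1, 14.8, 9.86, 21.2 and 20.9 CPM in the T zone (-1.37 ± 0.27, adjusted p = 0.00041). Cd40lg, the helper ligand that activates B cells, had 12.9, 9.99, 13.5, 11.5 and 18.2 CPM against 50.7, 25.9, 78.9, 32.2 and 38.3 CPM (-1.56 ± 0.18). Gata3, Tnfrsf4 and Tnfrsf18 changed by -1.27 ± 0.15, -0.74 ± 0.13 and -0.45 ± 0.09. Of 10 cytotoxic and natural killer cell genes, 3 were lower. Ccl5, a chemokine of memory and cytotoxic T cells, had 225, 175, 231, 231 and 270 CPM against 794, 340, 875, 537 and 645 CPM (-1.38 ± 0.09), and Nkg7 and Eomes changed by -1.47 ± 0.16 and -1.17 ± 0.20.

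Dendritic cell genes were lower for 8 of 12 and higher for 2. Fscn1, which shapes the processes of mature dendritic cells, had 49.0, 36.6, 65.0, 37.5 and 41.7 CPM in the follicle and 238, 62.4, 259, 94.9 and 143 CPM in the T zone (-1.66 ± 0.13, adjusted p = 1.8e-11). The gap was narrowest in wild-type 1. Sirpa, of conventional dendritic cells and macrophages, was lower by -0.22 ± 0.07 (adjusted p = 0.046). The 2 higher genes, Irf8 and Cd83, are also used by B cells, and both changed by 0.26 (SE 0.07 and 0.08). DESeq2 called neither, and 4 of the 12 as lower.

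T-zone stroma genes were lower in the follicle for 5 of 13, and 0 were higher, with a median of -0.38. Dcn and Dpt, matrix proteins of fibroblasts, changed by -1.43 ± 0.19 and -1.48 ± 0.14. Dcn had 15.9, 42.3, 42.6, 13.4 and 20.5 CPM in the follicle and 33.0, 60.6, 113, 66.3 and 114 CPM in the T zone. Col3a1, a fibrillar collagen, was lower by -0.70 ± 0.10, and Bst2, an interferon-inducible surface protein, by -0.38 ± 0.07. The fifth gene is Thy1, whose change could come from T cells as well as from stroma, and these sources cannot be told apart. Bst2 is not particular to stroma, so the source of its change cannot be told either. With zones from adjacent spots, Col3a1 changed by 0.05 and did not pass (adjusted p = 0.94), whereas Dcn changed by -1.66.

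**Figure D3:**
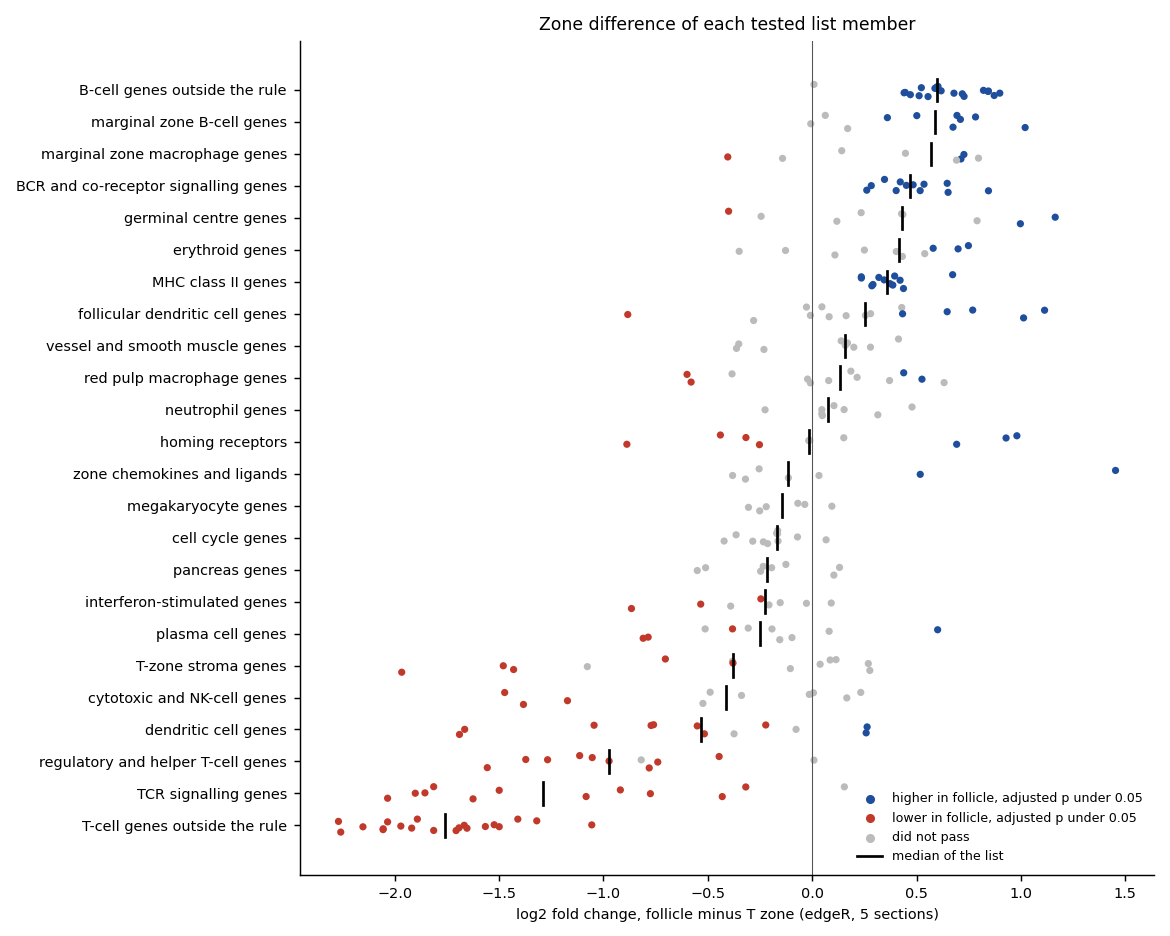
Each point is the edgeR log2 fold change of 1 tested gene of a list (follicle minus T zone, 5 sections), blue or red where the adjusted p is under 0.05, with the list's median as a black bar. T-cell genes sit at the far left (median -1.76, 20 of 20 lower), B-cell genes at the right (median 0.60, 19 of 20 higher), and neutrophil, megakaryocyte, vessel, pancreas and cell cycle genes have 0 members past the test.

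Antibody-secreting cells left another pattern. Of 10 plasma cell genes, 3 were lower in the follicle and 1 higher. Jchain, which joins IgM and IgA chains, had 1111, 144, 348, 245 and 300 CPM in the follicle and 1764, 367, 481, 486 and 469 CPM in the T zone (-0.81 ± 0.08, adjusted p = 6.6e-09), against a mean of 2091 CPM in the spots outside the ranked 50%. Sdc1, the plasma cell marker CD138, and Creld2, a protein of the secretory machinery, changed by -0.79 ± 0.19 and -0.38 ± 0.12. Irf4, also used by activated B cells, was higher by 0.60 ± 0.11. With zones from adjacent spots 0 of the 10 passed, and Jchain changed by -0.05.

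The genes of complement C1q, made by macrophages, were lower in the follicle. In the 3 wild-type sections alone C1qa changed by -0.68 (adjusted p = 5.6e-09). C1qb had 134, 40.9, 35.9, 29.8 and 55.2 CPM in the follicle and 180, 70.7, 41.9, 63.6 and 81.2 CPM in the T zone (-0.58 ± 0.10). C1qc had 235, 110, 141, 110 and 127 CPM against 282, 191, 217, 200 and 206 CPM (-0.60 ± 0.08), lower in 5 of 5 sections and hence also in both knockout spleens. Cd68, a lysosomal protein of macrophages, was lower by -0.40 ± 0.09. With zones from adjacent spots C1qb and C1qc changed by -0.07 and -0.08 and did not pass (adjusted p = 0.84 and 0.81).

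Other red pulp genes did not follow C1q. Of 12 red pulp macrophage genes, 2 were higher in the follicle (Fcna, 0.44 ± 0.14, and Timd4, 0.53 ± 0.11) and 2 were lower (C1qb and C1qc). DESeq2 called 0 of the 12 higher and 2 lower. With zones from adjacent spots 7 of 12 were higher and 0 lower (3.4% and 4.12% of all genes tested), with a median of 0.69 against 0.13. In the knockout sections alone 7 were higher and 2 lower (3.40% and 4.01% of all genes tested). Of 10 erythroid genes, 3 haemoglobin genes were higher: Hbb-bs by 0.70 ± 0.17, Hbb-bt by 0.58 ± 0.19 and Hba-a2 by 0.75 ± 0.21. Hbb-bs had 3176, 9126, 2028, 1736 and 5736 CPM in the follicle and 3420, 10773, 624, 1245 and 1598 CPM in the T zone. It was lower in the follicle in the purchased section and wild-type 1 and higher in the other sections, so the sections went both ways. Zones set from adjacent spots gave 8 of 12 erythroid genes higher (median 1.31 against 0.42), and the knockout sections alone gave 6 of 7. In both fits 3.4% of all genes tested were higher. The summed share of the erythroid list ran from 0.394 to 2.30% of UMIs in the follicle and from 0.202 to 2.90% in the T zone, and that of the marginal zone macrophage list from 0.0323 to 0.0496% and from 0.0225 to 0.0489%. In spots below the median share of red pulp genes, 1 of the 6 erythroid genes tested and 0 of 5 marginal zone macrophage genes were higher, and 571 genes were called in all (5.81%, with 2.23% higher and 3.58% lower), of which 547 were among the 1139. Among these spots, where 9823 genes were tested, 19 of 20 B-cell genes were higher and 19 of 19 T-cell genes lower, while the MHC class II and B-cell receptor signalling lists had 7 of 12 higher each, dendritic cell genes 2 of 10 lower and germinal centre genes 0 of 7 in either direction. DESeq2 called 0 of the erythroid and 0 of the marginal zone macrophage genes in either direction.

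Interferon-stimulated genes were lower in the follicle for 3 of 8, and among them Usp18 and Irf7 changed by -0.87 ± 0.15 and -0.53 ± 0.11, each in 5 of 5 sections. Of 8 neutrophil, 6 megakaryocyte, 9 vessel, 8 pancreas and 11 cell cycle genes tested, 0 passed in either direction by edgeR and by DESeq2. At an unadjusted p under 0.05 edgeR gave 0, 0, 3, 2 and 2 of them, and DESeq2 gave 0 in each list. When zones were set from adjacent spots, 3 of 7 neutrophil, 1 of 6 megakaryocyte and 2 of 9 vessel genes were higher (3.4% of all genes tested). In the knockout sections alone 2 of 3 neutrophil, 1 of 6 megakaryocyte and 2 of 9 vessel genes were higher (3.40% of all genes tested). There, 3 of 10 cell cycle genes were lower (4.01% of all). In the wild-type sections alone 1 of 6 megakaryocyte and 2 of 9 vessel genes were lower (3.18% of all).

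To see whether the differences built up across the ranking or lay at its ends, the ranked spots of each section were cut into 5 groups of 20%, from T zone (group 1) to follicle (group 5). Trac averaged 634, 289, 225, 182 and 137 CPM over the sections, and it fell at every step in 5 of 5 sections. The largest step was the first. Cxcr5 averaged 236, 327, 366, 404 and 456 CPM and rose at every step in 5 of 5 sections, as did Blk. Fscn1 averaged 159, 75.4, 56.9, 51.1 and 46.0 CPM and Ccr7 298, 192, 169, 160 and 151 CPM, both highest in group 1 in 5 of 5 sections and close to level over groups 3 to 5. The T-zone groups thus stood apart from the rest for dendritic cell and T-cell genes, while B-cell genes changed by steps.

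Marco and Hbb-bs were not highest at either end. Marco averaged 101, 184, 197, 198 and 168 CPM, and was highest in neither group 1 nor group 5 in any of the sections. Hbb-bs averaged 3532, 5250, 5609, 5377 and 4360 CPM. Ighm averaged 6540, 7288, 7107, 6678 and 6413 CPM, and was highest in group 1 in 1 section, wild-type 1. Cxcl13, Mfge8 and Madcam1, of follicle stroma, were highest in group 5 in 5 of 5 sections, at 94.6, 1356 and 45.3 CPM.

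**Figure D4:**
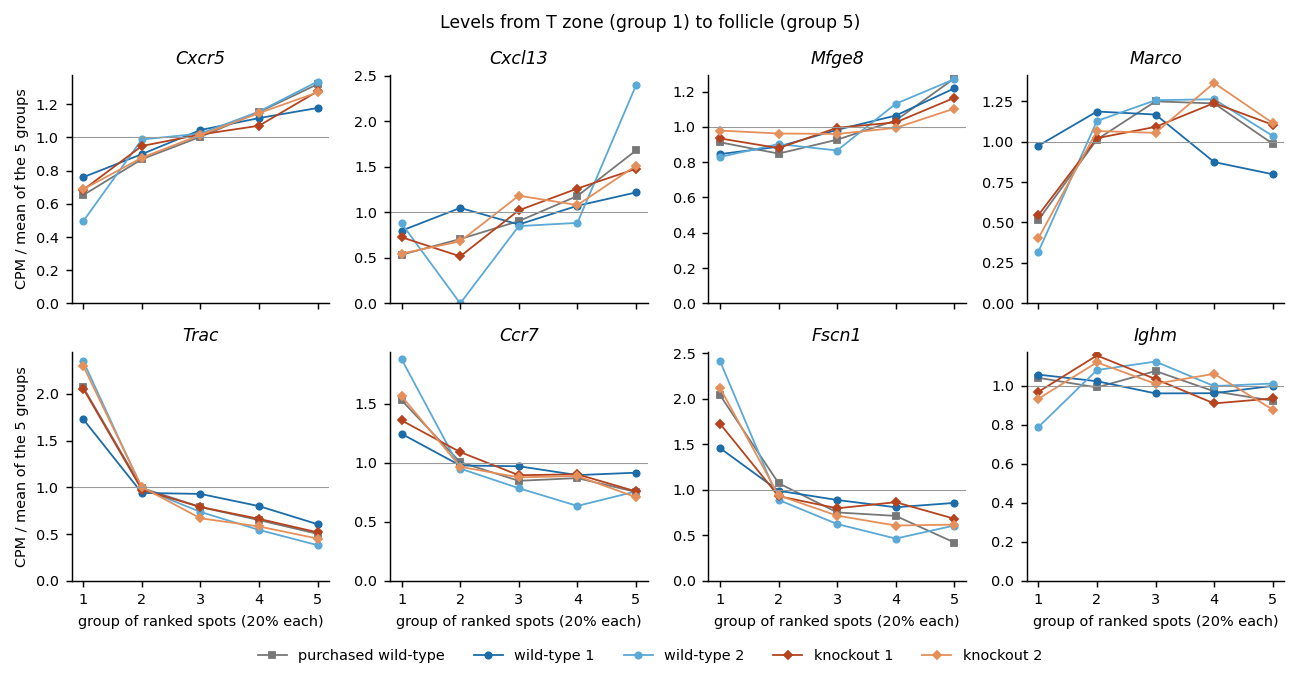
Each panel gives 1 gene across 5 groups of ranked spots (group 1 is the T zone, group 5 the follicle), as CPM divided by the mean of the 5 groups of that section (linear axes from 0), with a line per section. Trac, Ccr7 and Fscn1 drop after group 1, Cxcr5 rises through all groups in 5 of 5 sections, and Marco peaks between the ends.

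Whether the zone difference depended on C1qa was tested in the 4 cross spleens as the difference between genotypes of the follicle minus T-zone change. Of 13165 genes, 0 passed in edgeR and 0 in DESeq2 (background 0%), with 662 and 20 genes at an unadjusted p under 0.05. In simulated sums with the spread fitted for the zone comparison, edgeR recovered 41% of 2-fold changes of this term and 6% of smaller ones. The 0 calls therefore do not show that the zone difference is the same in both genotypes. For genes that mark the zones the genotype term, knockout minus wild type, was 0.03 for Cxcr5, 0.61 for Cxcl13, -0.23 for Trac and -0.30 for Ccr7, with adjusted p from 0.98 to 1.00. The count depended on single sections, and was 53 without wild-type 1, 68 without wild-type 2, 26 without knockout 1 and 0 without knockout 2. Each of these fits leaves 1 genotype with a single section, which is then assumed to vary like the other genotype.

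The 6 genes with the smallest p, chosen after their values were seen, were Dcn, Ube2l6, Alas2, S100a9, Marco and Lhfp (adjusted p = 0.058 for the first 5 and 0.074 for Lhfp). Marco had log2 differences of -0.29 in wild-type 1, 1.67 in wild-type 2, 1.01 in knockout 1 and 1.46 in knockout 2. Its genotype term was 1.32 ± 0.26. Alas2, the first enzyme of haem synthesis in erythroid cells, had differences of -0.29 and 1.40 in the wild-type sections, against 0.58 and 1.75 in those of the knockout. For both genes a wild-type section lay within or above the knockout range. Dcn had differences of -0.51 and -1.39 against -2.22 and -2.42, and Ube2l6, of interferon-stimulated and erythroid cells, had -0.50 and -0.39 against 0.20 and 0.93. Neither gene's genotypes overlapped, and neither passed the adjusted test.

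**Figure D5:**
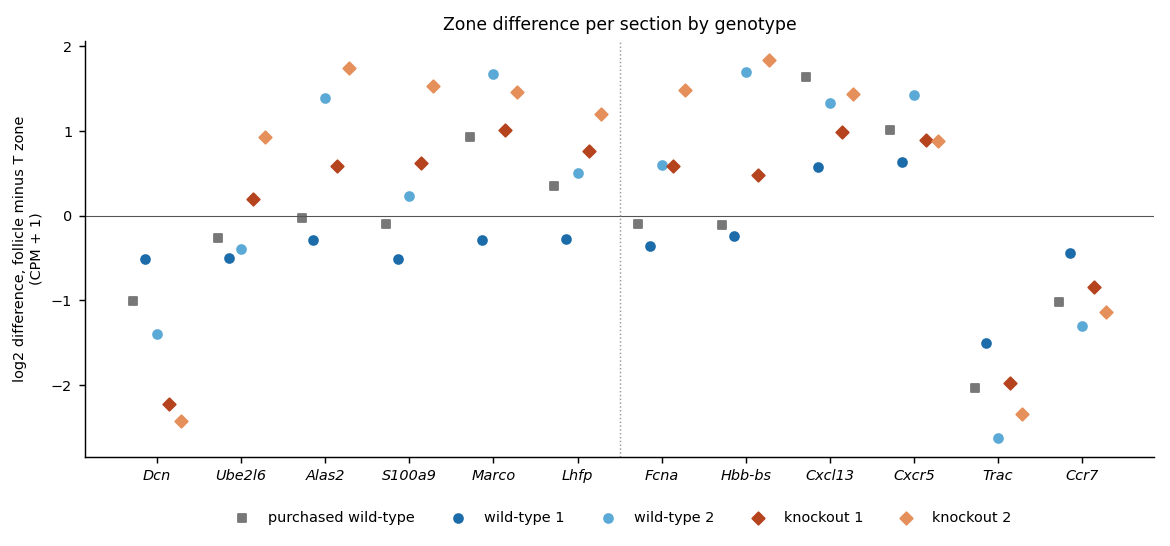
Points are log2 differences of CPM plus 1, follicle minus T zone, for each of 5 sections. Left of the dotted line stand the 6 genes with the smallest p of the genotype term and right of it 6 others. Wild-type 1 and wild-type 2 lie far apart for Marco and Alas2, while Cxcr5 and Trac keep 1 direction in all sections.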

How the data were processed

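RNA was measured with 10x Genomics Visium on FFPE sections with probes for the whole transcriptome. Per the labels and the deposited files, the authors made raw UMI counts per gene and spot with Space Ranger (build mm10 in the submitters' processing notes), without normalization. Other deposited tables used here hold gene names, barcodes and array positions, and image scale files were not used. The purchased table held 32589 features and those of the cross held 19465 features, all of which were shared and were used here. Sections of the cross and the purchased section carried different software names in their headers. Total counts were 4604705 to 19939171 per section and zone sums 405514 to 2162710, which limits genes at few CPM. Intervals and floors cover counting error only. The purchased and cross sections differ in mice and processing, which the section term absorbs in the zone comparison.

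Spots were ranked as described, with ties in the ratio broken by barcode, and counts were summed per section and zone (10 sums). edgeR 4.0.16 (filterByExpr, TMM, glmQLFit and glmQLFTest, section as a block, Benjamini-Hochberg over all genes tested) gave fold changes and adjusted p-values. The genotype term used 8 sums. DESeq2 1.42.0, upper-quartile factors, no low-count filter, no section block, left-out sections, other zone sizes and rules, thinned spots (1000 UMIs) and thinned sums were tried as alternatives. Fits were tested on simulated data. List shares and depth used exact sign-flip tests. Log2 differences per section used CPM plus 1.

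Members and gene lists were chosen with earlier results of these data known. Genes were named by a rule: C1q genes, all zone ligands and homing receptors, the 4 most abundant tested members of each other list, the 12 called genes in each direction with the smallest adjusted p and 1 sign in all 5 sections, the 5 called with the largest fold at a mean of at least 10 CPM, and the zone markers. Where 5 or fewer members of a list passed, those were named after their values were seen, as were Foxp3 and the genes of the genotype term. Pax5, Cd4 and Cd8a were named as zone markers. Some genes of these lists that the rule names are not reported here.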

Additional observations from a re-analysis of the deposited data

Results flagged for a closer look

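In 6 of 132 values tested over the 5 sections, 1 section lay far from the other 4. Chance flags about 1 in 20 such values. All 6 were wild-type 2, the section with the fewest UMIs per spot. Its log2 difference was 0.36 for Ighm (others -0.17 to -0.05), 1.61 for Blk (0.65 to 0.90), 1.49 for Mzb1 (0.42 to 0.67) and -2.57 for Traj12 (-1.77 to -1.55). Its log2 ratio of follicle to T zone was 0.17 for median UMIs per spot (others -0.11 to -0.03) and 0.81 for the share of the B-cell list (others 0.24 to 0.31). The median T-zone spot of that section held 6 B-cell UMIs, against 50 to 74 in the others. The part of depth in these values was not tested beyond the thinned sums and the fits without that section. For the genotype term 0 genes passed in edgeR, with 662 at an unadjusted p under 0.05, and 0 in DESeq2.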

How the results depend on the processing

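Across 21 alternatives for the zone comparison, 0 of the 1139 genes were called in the opposite direction. The count was 567 with DESeq2, 368 with a stricter limit on the B and T share, 571 in spots low in red pulp genes, 543 with sums thinned to the smallest and 164 with spots thinned to 1000 UMIs, where 3613 genes were tested. Leaving out 1 section gave 714 (without the purchased section) to 1168. Without the section as a replicate block 63 genes were called, and of the 84 named genes that passed, 16 did, against 35 with thinned spots. For the genotype term, where 0 passed, the count was 13 without the low-count filter, 9 with all 5 sections, 25 with larger zones, 32 with zones from adjacent spots and 0 to 68 when 1 section was left out. The sample number as a replicate block gave 15, but the numbers pair no samples by the labels, and the deviations of same-numbered sections correlated at 0.0546 over 13165 genes. The cause of these shifts was not tested, apart from fewer genes tested after thinning.

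Some log2 fold changes changed sign, mostly of genes that did not pass. Ighm was -0.013 without the block, -0.055 in knockout sections alone, -0.069 with larger zones, -0.15 with all spots ranked, -0.16 thinned, -0.017 with the marker genes left out of the rule and -0.079 to 0.045 over left-out sections. Gpr183 was 0.083 in wild type alone, 0.0082 with larger zones, 0.10 with all spots, 0.078 thinned and -0.087 to 0.056 over left-out sections. S1pr2 was 0.30 in wild type alone, 0.34 with smaller zones, 0.10 with all spots, 0.14 with the stricter limit, 0.22 with markers left out and -0.36 to 0.21 over left-out sections. Clu was -0.13 in knockout alone, -0.34 with adjacent spots and -0.040 to 0.12 over left-out sections. Ltb was -0.10 with adjacent spots and -0.0096 to 0.067 over left-out sections. Cxcl12 was 0.22 in knockout alone, 0.53 with adjacent spots and 0.034 thinned. With thinned spots S1pr1 was -0.031, Bcl6 -0.051 and Hba-a2 (which had passed) -0.0042, and Tnfsf11 was 0.31 in spots low in red pulp genes. Of genes that passed, Basp1 0.043 with the stricter limit, Col3a1 0.050 with adjacent spots, and Fcna -0.032 in wild type alone and -0.10 with the stricter limit. Of 95 genes of the text that passed, 91 kept their direction in every alternative and 17 passed in every one run.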
